A study of Mus musculus with 5 samples.

Results

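The genes described here are 10 transporters that move drugs, hormones and metabolites across the membranes of kidney tubule cells. They are Slco1a1, Slco2a1, Slco3a1 and Slco4c1 of the organic anion transporting polypeptide family, the organic cation exchanger Slc47a1, and the ATP-driven pumps Abcc2, Abcc4, Abcb1a, Abcb1b and Abcg2. They were found by their gene symbols among the 35478 genes listed in the files, and all 10 had enough counts to be tested. Slco proteins take up organic anions, among them steroid conjugates, bile acids, thyroid hormones and prostaglandins. In the proximal tubule, uptake carriers at the blood side load a compound into the cell, and Slc47a1 and the ABC pumps at the brush border pass it on into the urine. ABC pumps use the energy of ATP, whereas Slc47a1 exchanges its cation for a proton.

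Kidneys came from male mice of 7 to 8 weeks, of which 2 were Prdm16fl/fl (control mice below) and 3 were Ksp-Cre/Prdm16fl/fl (Cre mice below). The sample labels give the strain as C57BL/6J, and the study's methods give it as C57BL/6J;129. All 5 carried floxed Prdm16 alleles, with loxP sites around exon 9, and the controls were littermates without Cre. Ksp-Cre puts the recombinase under the promoter of kidney-specific cadherin (Cdh16), which is active in tubular epithelium, so that other cells of the organ keep the gene. All 5 mice had unilateral ischemia-reperfusion injury (UIRI), with the left renal pedicle closed for 35 minutes at 38.5°C, the right kidney taken out on day 10 and the injured kidney collected on day 11. The comparison asks how loss of Prdm16 in tubules changes the injured kidney, and uninjured kidneys are not analysed here. Each library is 1 mouse. The labels give the tissue as kidney, and the study's methods name the cortex as the part from which RNA was taken. Gene positions below are as the files give them, in a build that is not named and that differs from GRCm38.

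Total counts lay between 14939040 and 16425161 per library. Prdm16 itself had 375 and 279 counts in control mice 1 and 3, and 302, 287 and 270 in Cre mice 1, 2 and 3, a log2 fold change of -0.38 ± 0.15 (SE, adjusted p = 0.259, edgeR's quasi-likelihood test). A count over the whole gene does not isolate the floxed exon, so it checks the labels only loosely. Cre mouse 3 stood apart: over all tested genes its log2 CPM correlated with the other 4 libraries at r of 0.943 to 0.96, whereas the other 4 correlated with one another at 0.97 to 0.991. A gene was called when its adjusted p was under 0.05 and its log2 fold change was at least 1 in size. Of 16394 genes tested, 103 were called lower in Cre kidneys and 13 were called higher.

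Of the 10 transporters, 1 was called lower, Slco1a1, and 0 were called higher. Among all genes tested, 0.628% were called lower and 0.0793% were called higher. At an unadjusted p under 0.05, 5 of the 10 passed with edgeR, against 18.8% of all genes tested, and 7 with DESeq2, against 11.4% of the 25633 genes to which it gave a p. Under the call rule DESeq2 gave the same 1 and 0, with 1.49% of its genes called lower and 0.472% called higher. Without Cre mouse 3 edgeR also called 1 lower and 0 higher, and 3.1% and 1.43% of 16196 genes. In CPM the groups did not overlap for 5 transporters, and in TPM Slco3a1 and Abcb1b differed from this, as given below. Slco1a1, Slco3a1 and Slc47a1 were lower in every Cre mouse than in both control mice, 3 of 10 against 21.3% of all genes, and Slco2a1 and Abcc4 were higher in every one, 2 of 10 against 20.3%. These shares are near those of all genes. The median log2 fold change of the 10 was 0.10, with 4 below 0 and 6 above, and that of all genes was 0.038. In bulk tissue, fewer cells of a type and less RNA per cell cannot be told apart.

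**Figure D1:**
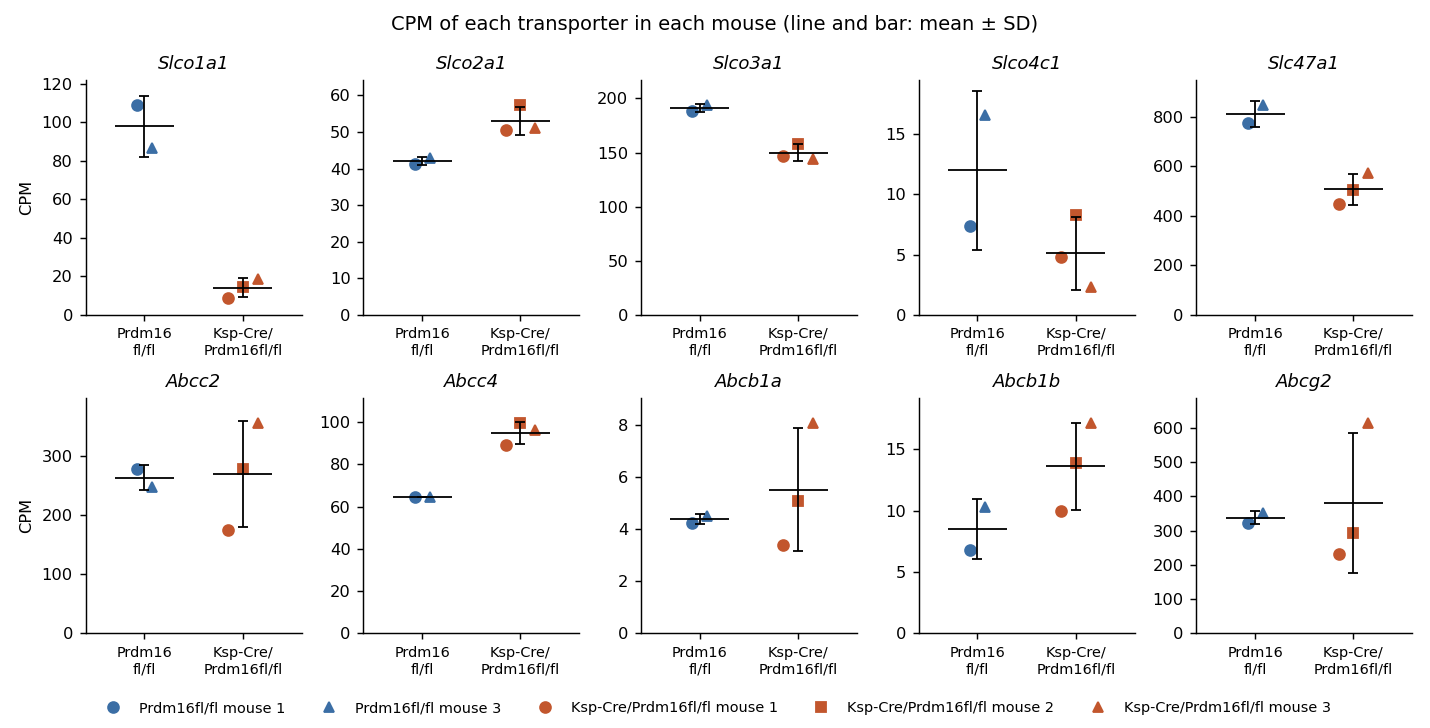
CPM (counts per 1000000 after TMM scaling, y axis from 0) of each transporter in each mouse, with control mice (Prdm16fl/fl) at left and Cre mice (Ksp-Cre/Prdm16fl/fl) at right of each panel, where points are mice, horizontal lines are means and bars are SD (n = 2 and 3). Slco1a1 lies at 86.7 to 109 in control mice and at 8.97 to 18.8 in Cre mice, and Abcg2 reaches 613 in Cre mouse 3 alone.

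The transporters can be ranked against one another only per length, for which the deposited TPM (a count scaled by exon length and library total) was used. In control kidneys Slc47a1 had the highest level, 459 ± 2.44 TPM (SD, n = 2), and Abcg2 followed at 199 ± 2.45. Abcc2 was at 103 ± 15.2 TPM, Slco3a1 at 77.7 ± 3.8 and Slco1a1 at 54.3 ± 12.5. Slco2a1 and Abcc4 were at 19.5 ± 0.805 and 15.5 ± 1.08 TPM, and Slco4c1, Abcb1b and Abcb1a were the lowest, at 6.26 ± 3.06, 3.71 ± 0.813 and 1.85 ± 0.0461. In this order only the neighbours Slco4c1 and Abcb1b had overlapping values.

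In Cre kidneys the first 4 places were the same: Slc47a1 at 338 ± 24.4 TPM (SD, n = 3), Abcg2 at 259 ± 121, Abcc2 at 122 ± 34.5 and Slco3a1 at 72.2 ± 7.66. Slc47a1 and Abcg2 overlapped there. Slco2a1 (29.1 ± 3.33 TPM) and Abcc4 (26.8 ± 2.05), which overlapped, now stood above Slco1a1, which was at 9.01 ± 2.69 and overlapped with Abcb1b at 7.0 ± 1.48. Abcb1b overlapped with Slco4c1 (3.27 ± 2.04 TPM), and Slco4c1 with Abcb1a (2.71 ± 0.982). Slco1a1 thus moved from place 5 to place 7, the widest shift in the order.

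**Figure D2:**
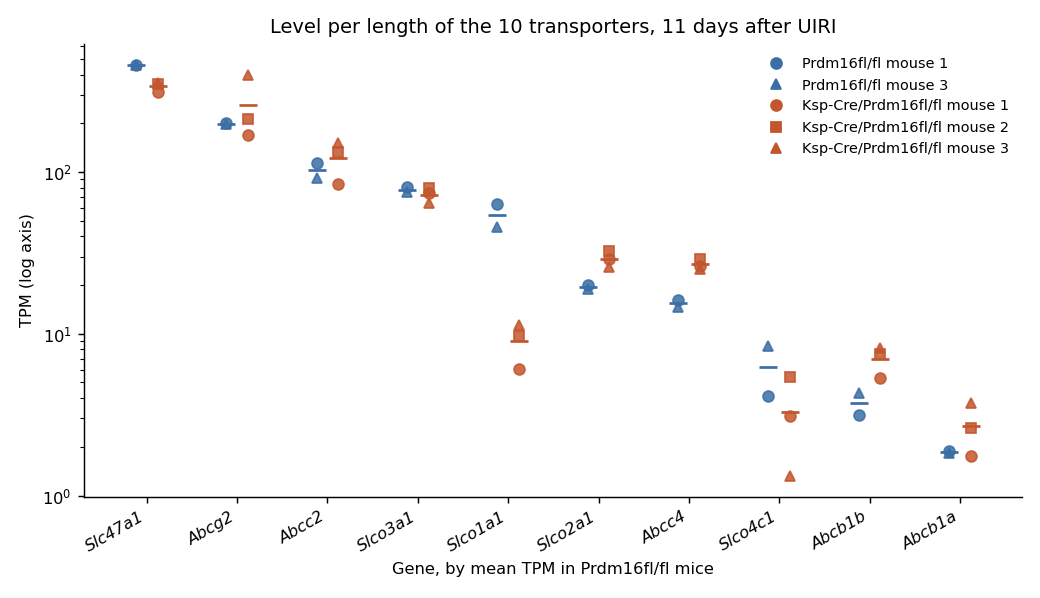
TPM of the 10 transporters on a log axis, ordered by the mean of the control mice (Prdm16fl/fl, the others being Cre mice); points are mice and short lines are group means. The levels span from 459 for Slc47a1 to 1.85 for Abcb1a in control kidneys, and Slco1a1 drops from 54.3 to 9.01.

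Among the uptake transporters, Slco1a1 fell 7.0-fold. Slco1a1 (chromosome 6, 141853007 to 141892688, minus strand) is a multispecific anion carrier of the proximal tubule and liver, and in mouse kidney its expression is known to depend on androgens. Its counts were 1619 and 1209 in control mice 1 and 3, and 158, 242 and 282 in Cre mice 1, 2 and 3. Every Cre mouse was below both controls by a wide margin. The means were 97.9 ± 15.8 CPM (SD, n = 2) and 14.0 ± 4.92 CPM (n = 3), and the log2 fold change was -2.81 ± 0.30 (SE, adjusted p = 0.0366, edgeR's quasi-likelihood test).

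The direction held without each mouse in turn, with log2 fold changes of -3.07 to -2.57, and the call did not. Without control mouse 1 or control mouse 3 the log2 fold change was -2.63 and -2.96. With 1 control left the spread of the controls is unknown, so the lost call there says nothing particular about Slco1a1. The adjusted p of edgeR's quasi-likelihood test was 0.105 without Cre mouse 1 and 0.136 without Cre mouse 2. It was 0.000225 without Cre mouse 3, the library that stood apart. With glmTreat of edgeR, which asks for a log2 fold change beyond 1, the result was an adjusted p of 0.362. Of all genes, 0 were called with glmTreat, without Cre mouse 1 or without Cre mouse 2, so there the loss was not particular to Slco1a1.

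Slco1a1 belongs to a cluster of close relatives on chromosome 6, and its coding sequence was 84.0% identical to that of Slco1a6, 86.6% to Slco1a4 and 88.0% to Slco1a5. The longest stretch of identical coding bases was 96 with Slco1a6, 132 with Slco1a4 and 131 with Slco1a5. The first 90 coding bases of Slco1a1 and Slco1a6 are shown as an example, and they differ more than the coding sequences as a whole. They are from GENCODE transcripts on GRCm38, minus strand, and span chr6:141943495-141946638 and chr6:142157347-142161059 with introns left out. Capitals mark the 23 bases that differ.
Slco1a1: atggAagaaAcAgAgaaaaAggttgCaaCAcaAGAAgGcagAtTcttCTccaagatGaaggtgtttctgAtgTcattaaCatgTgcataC
Slco1a6: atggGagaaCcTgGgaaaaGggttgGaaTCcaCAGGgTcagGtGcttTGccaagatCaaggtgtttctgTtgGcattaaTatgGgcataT
Of all stretches of 150 bases of the Slco1a1 transcript, 0.0% recur exactly in another gene, and of those of 50 bases 2.6% do. An overlap with exons of Gm30843 on the opposite strand covers 5.7% of the Slco1a1 exon bases, and Gm30843 had 11 counts over the 5 libraries.

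Slco1a6, the most abundant relative, did not pass the test. It had 2061 and 1962 counts in control mice 1 and 3, and 1303, 1669 and 1704 in Cre mice 1, 2 and 3. Its log2 fold change was -0.55 ± 0.19 (SE, adjusted p = 0.201, edgeR's quasi-likelihood test), and the groups did not overlap in CPM. For each Slco1a6 count there were 0.786 and 0.616 counts of Slco1a1 in the control mice, and 0.121, 0.145 and 0.165 in the Cre mice. Slco1a4 had 9 to 25 counts per library and Slco1a5 1 to 3. With the 4 genes summed as 1, the log2 fold change was -1.12 ± 0.206 and the adjusted p 0.0648 (edgeR's quasi-likelihood test), so the call was lost with the pooled value, most of which is Slco1a6.

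**Figure D3:**
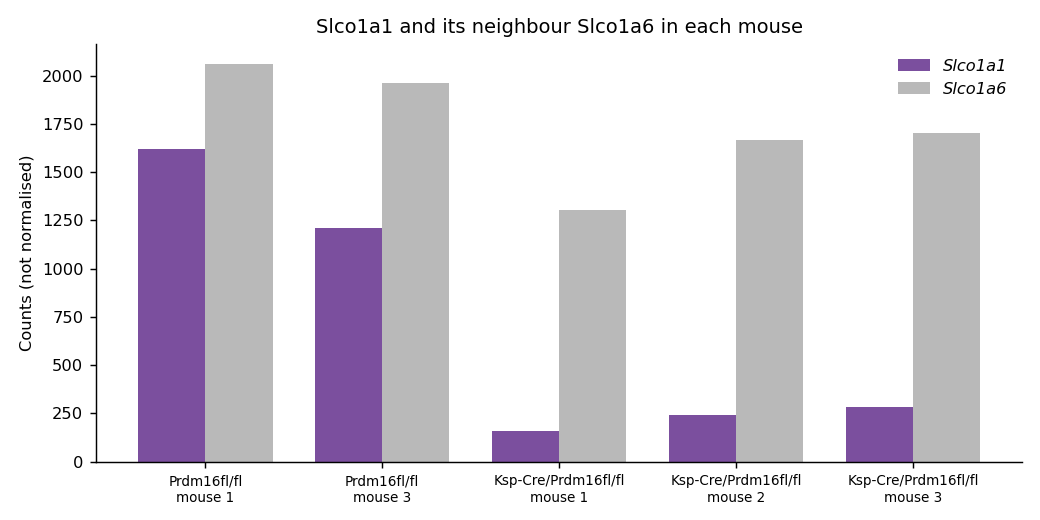
Counts, not normalised, of Slco1a1 and its relative Slco1a6 in each of the 5 mice (bars from 0, 1 library each). Slco1a1 has 1209 to 1619 counts in the control mice and 158 to 282 in the Cre mice, whereas Slco1a6 has 1303 to 2061 over all 5.

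The 250 bases before the start of Slco1a1 are printed as the upstream sequence of the single transporter that was called. They lie at chr6:141946963-141947212, minus strand, in RefSeq on GRCm38.p6, and capitals mark matches to a searched motif.
Slco1a1 upstream: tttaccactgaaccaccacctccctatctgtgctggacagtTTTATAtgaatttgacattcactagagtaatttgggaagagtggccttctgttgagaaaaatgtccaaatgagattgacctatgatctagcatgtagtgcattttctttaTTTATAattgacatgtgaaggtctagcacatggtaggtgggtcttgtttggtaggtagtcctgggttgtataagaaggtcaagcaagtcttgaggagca
The motifs searched on both strands were the TATA box (TATAAA), an HNF1 half-site (GTTAAT), an HNF4 core (CAAAGTC), the antioxidant response element (TGACNNNGC) and an androgen receptor half-site (AGAACA). The Slco1a1 window holds the TATA box letters at 2 places, both on the opposite strand. Of 32851 such windows, 12.4% hold the TATA box letters, 6.43% the HNF1 half-site, 3.84% the HNF4 core, 10.2% the antioxidant response element and 16.1% the androgen receptor half-site. Upstream windows were at hand for 8 of the 10 transporters, and those of Abcb1a, Abcb1b and Abcg2 hold none of them. Those of Abcc2, Abcc4 and Slco4c1 hold the antioxidant response element letters, that of Slco2a1 the TATA box, and Slco4c1 and 1 of the 2 windows of Abcc4 the androgen receptor half-site. A match of letters is a description and not a site in use.

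The other Slco genes did not pass the test. Slco2a1 (chromosome 9, 102885686 to 102973201, plus strand) is the prostaglandin transporter, which clears prostaglandins from the extracellular space. It was at 41.2 and 42.8 CPM in control mice 1 and 3, and at 50.6, 57.4 and 51.2 CPM in Cre mice 1, 2 and 3. All 3 lay above both controls by a small margin, and the log2 fold change was 0.34 ± 0.12 (SE, adjusted p = 0.202, edgeR's quasi-likelihood test).

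Slco3a1 (chromosome 7, 73925166 to 74204528, minus strand) is a broadly expressed carrier of prostaglandins and thyroxine. Its CPM was 188 and 194 in the control mice and 147, 158 and 144 in the Cre mice. In CPM the 2 groups were each tight and did not overlap, at a log2 fold change of -0.35 ± 0.11 (SE, adjusted p = 0.184, edgeR's quasi-likelihood test). In TPM the groups overlapped. Control mice 1 and 3 were at 80.4 and 75.0 TPM, and Cre mice 1, 2 and 3 at 73.6, 79.1 and 63.9 TPM.

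Slco4c1 (chromosome 1, 96744918 to 96800027, minus strand) is a kidney uptake carrier of the proximal tubule for thyroid hormone, digoxin and uremic solutes. It had 109 and 232 counts in the control mice and 84, 140 and 34 in the Cre mice. The controls differed from each other more than 2-fold, and Cre mouse 2 lay between them. The log2 fold change was -1.23 ± 0.57 (SE, adjusted p = 0.315, edgeR's quasi-likelihood test) and lay between -1.76 and -0.52 without single mice. Exons of Panct2 on the opposite strand cover 2.75% of its exon bases, and Panct2 had 242 counts over the 5 libraries. Whether counting used the strand is not given in the sources used here, so reads from such overlaps cannot be told apart.

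Slc47a1 (chromosome 11, 61234226 to 61269668, minus strand), known as MATE1, secretes organic cations such as metformin and creatinine into the urine. Its CPM was 775 and 848 in control mice 1 and 3, and 447, 506 and 572 in Cre mice 1, 2 and 3. It was the most abundant of the 10 per length, and every Cre mouse lay below both controls. The log2 fold change was -0.68 ± 0.16 (SE, adjusted p = 0.102, edgeR's quasi-likelihood test), so it did not pass. Without Cre mouse 3 it was -0.77 with an adjusted p of 0.00382 (edgeR's quasi-likelihood test), still under 1 in size and so not called.

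Among the ABC pumps, Abcc4 had the smallest adjusted p. Abcc4 (chromosome 14, 118720104 to 118945475, minus strand), known as MRP4, exports cyclic nucleotides, urate and organic anions. Its CPM was 64.6 and 64.5 in control mice 1 and 3, and 89.2, 99.4 and 96.2 in Cre mice 1, 2 and 3. The controls were almost equal and all 3 Cre mice lay above them. The log2 fold change was 0.56 ± 0.11 (SE, adjusted p = 0.0726, edgeR's quasi-likelihood test), which did not pass. Without Cre mouse 3 it was 0.55 with an adjusted p of 0.00707 (edgeR's quasi-likelihood test), and it stayed under 1 in size.

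Abcc2 and Abcg2 differed more among the Cre mice than between the genotypes. Abcc2 (chromosome 19, 43770747 to 43826771, plus strand), known as MRP2, exports glutathione and glucuronide conjugates. It was at 279 and 249 CPM in the control mice and at 176, 278 and 356 CPM in Cre mice 1, 2 and 3. The latter spanned the controls on both sides, and the log2 fold change was 0.03 ± 0.29 (SE, adjusted p = 0.965, edgeR's quasi-likelihood test), or -0.22 without Cre mouse 3.

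Abcg2 (chromosome 6, 58561476 to 58669436, plus strand), the breast cancer resistance protein, exports urate and many drugs. It was at 323 and 350 CPM in the control mice and at 233, 293 and 613 CPM in Cre mice 1, 2 and 3. Mice 1 and 2 were below both controls and mouse 3 was far above them. The log2 fold change was 0.17 ± 0.41 (SE, adjusted p = 0.853, edgeR's quasi-likelihood test), and without mouse 3 it was -0.35 ± 0.128 (adjusted p = 0.089, edgeR's quasi-likelihood test). The sign of Abcg2 therefore rests on 1 library.

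Abcb1a (chromosome 5, 8617091 to 8798575, plus strand) and Abcb1b (chromosome 5, 8848147 to 8916314, plus strand) are neighbouring genes that both make P-glycoprotein, an export pump of many hydrophobic drugs. Abcb1a had 63 counts in each control mouse and 60, 86 and 121 in Cre mice 1, 2 and 3. Abcb1b had 101 and 143 counts in the control mice and 175, 236 and 256 in the Cre mice. Both were among the 3 least abundant of the 10 per length in control kidneys, and for both the genotypes overlapped in CPM. In TPM those of Abcb1b did not, at 3.13 and 4.28 in the control mice and 5.34, 7.49 and 8.18 in the Cre mice. The log2 fold change was 0.33 ± 0.39 for Abcb1a (SE, adjusted p = 0.693) and 0.68 ± 0.30 for Abcb1b (adjusted p = 0.302, both edgeR's quasi-likelihood test). Without Cre mouse 3, that of Abcb1a was -0.05 and that of Abcb1b 0.49.

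The coding sequences of the pair are 88.1% identical, with a stretch of 338 bases that is the same in both, so part of their reads cannot be assigned to 1 gene. Their first 90 coding bases, shown for this reason, are from GENCODE transcripts on GRCm38, plus strand, and span chr5:8660668-8664570 and chr5:8798742-8805457 with introns left out. Capitals mark the 4 bases that differ.
Abcb1a: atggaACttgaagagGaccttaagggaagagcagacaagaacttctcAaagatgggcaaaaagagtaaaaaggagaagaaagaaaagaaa
Abcb1b: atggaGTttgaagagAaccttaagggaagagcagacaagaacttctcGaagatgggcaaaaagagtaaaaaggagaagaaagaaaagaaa
Of the stretches of 50 bases, 18.6% in Abcb1a and 19.6% in Abcb1b recur in another gene, and of those of 150 bases 4.41% and 5.15% do. Among the 10 transporters such sharing at 150 bases was found for these 2 only. Exons of Gm5106 on the opposite strand cover 2.87% of the Abcb1b exon bases, and Gm5106 had 5 counts over the 5 libraries.

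Abcb1b made up most counts of the pair in every mouse. Its share was 61.6% (95% Wilson interval 54.0 to 68.7) in control mouse 1 and 69.4% (62.8 to 75.3) in control mouse 3. In Cre mice 1, 2 and 3 it was 74.5% (68.5 to 79.6), 73.3% (68.2 to 77.8) and 67.9% (63.0 to 72.4). The intervals cover counting error only. The group means were 65.5% ± 5.54 (SD, n = 2) and 71.9% ± 3.5 (n = 3), and the groups overlapped. The difference of 6.39 percentage points had p = 0.4 in an exact permutation test (two-sided), for which 2 against 3 mice allow no p under 0.2. The 2 genes summed had a log2 fold change of 0.57 ± 0.298 (SE, adjusted p = 0.364, edgeR's quasi-likelihood test).

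**Figure D4:**
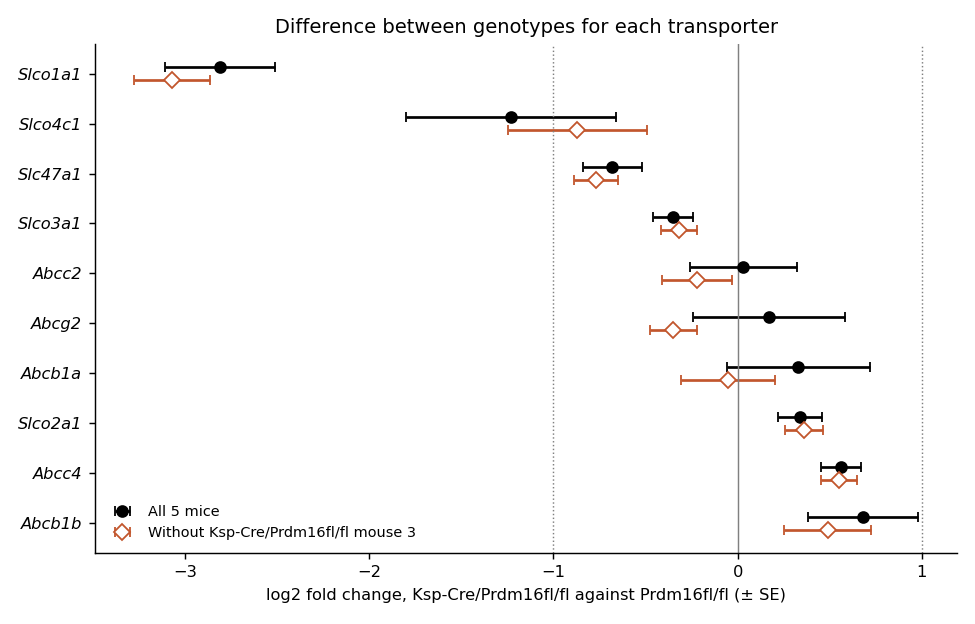
Log2 fold change (x axis) of each transporter in Cre (Ksp-Cre/Prdm16fl/fl) against control (Prdm16fl/fl) kidneys with its SE, for all 5 mice (filled circles) and without Cre mouse 3 (open diamonds); dotted lines stand at -1 and 1. Slco1a1 is at -2.81 and -3.07, and Abcc2, Abcg2 and Abcb1a change sign, from 0.03 to -0.22, from 0.17 to -0.35 and from 0.33 to -0.05.

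Markers of the proximal tubule, the segment that holds most of these transporters, were set beside them. All 14 listed markers were lower in mean in Cre kidneys, with a median log2 fold change of -1.16. Of them 3 were called, Acsm2, Miox and Fbp1, and of all genes 0.628% were called lower. Without Cre mouse 3, 9 of the markers were called lower, against 3.1% of all genes. With DESeq2, 9 were called lower, against 1.49% of all genes. Their summed level was 14100 to 14300 CPM in control mice and 5620 to 6590 CPM in Cre mice, and none was at 0. Only 1 of the 14, Slc7a13, had a more negative log2 fold change than Slco1a1. The part of this change in the transporters' values was not tested.

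Relative to the median log2 CPM of these markers in the same library, Slco1a1 stood at -2.03, -1.58 and -0.50 in Cre mice 1, 2 and 3 against the control mean, on the log2 scale. Control mice 1 and 3 lay at 0.20 and -0.20. The mean difference was -1.37 (p = 0.2, exact permutation test, two-sided, the smallest p possible), and -1.81 without Cre mouse 3. The other 9 transporters all had a mean difference above 0 on this scale, from 0.20 for Slco4c1 to 2.14 for Abcb1b. Because the marker median was itself lower in Cre kidneys, a gene unchanged between genotypes also comes out above 0. The signs of the 9 are therefore no result about these transporters. Slc47a1 was at 0.80 and Abcg2 at 1.52.

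**Figure D5:**
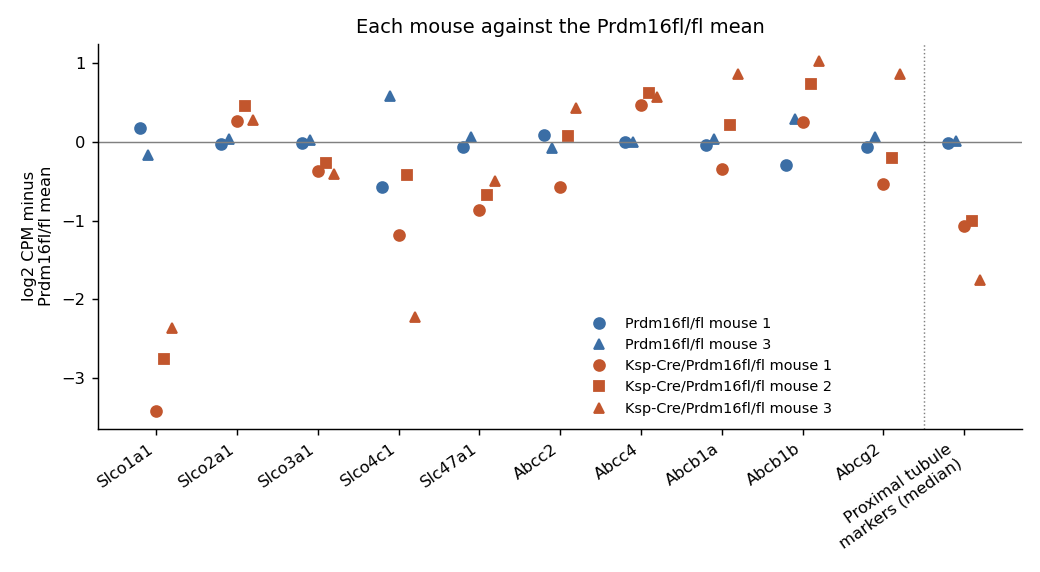
Log2 CPM minus the control mean (y axis) for each transporter, and the median of these differences over 14 proximal tubule markers, with 1 point per mouse. That median of differences is not the change in the markers' median log2 CPM, which the text above uses. The markers are at -1.07, -1.01 and -1.75 in Cre mice 1, 2 and 3, and Slco1a1 is at -3.42, -2.76 and -2.36.

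Levels of blood, injury and androgen-responsive genes stand beside these. All 5 erythroid markers were higher in mean, with summed levels of 6.67 and 10.8 CPM in control mice and 40.5 to 151 CPM in the others, and 0 were called. All 9 tubular injury markers were higher in mean, with a median of 1.13 on the log2 scale, 15300 to 15800 CPM against 32600 to 38400 CPM, and 0 called. Of 7 androgen-responsive kidney genes, listed because Slco1a1 is one in mouse kidney, 6 were lower in mean and 0 were called, with a median log2 fold change of -1.25 and sums of 16000 to 21200 against 4290 to 8980 CPM. At an unadjusted p under 0.05 in edgeR, 5 of 5 erythroid, 8 of 9 injury and 4 of 7 androgen-responsive genes passed, against 18.8% of all genes. Of all genes, DESeq2 called 0.472% higher and 1.49% lower, and edgeR without Cre mouse 3 called 1.43% higher and 3.1% lower. With DESeq2, and also with edgeR without Cre mouse 3, 5 erythroid markers and 6 injury markers were called higher and 4 androgen-responsive genes were called lower. Whether any of these bears on the transporters was not tested.

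Markers of later segments and the glomerulus had medians below 0. These were -0.71 for 7 thick ascending limb and distal tubule genes (4510 to 4750 against 1500 to 3560 CPM), -0.69 for 8 collecting duct genes (523 to 624 against 281 to 470 CPM) and -0.74 for 6 podocyte genes (589 to 755 against 436 to 456 CPM). Among markers outside the epithelium, 8 endothelial genes had a median of 0.04 (306 to 316 against 270 to 406 CPM). For 8 fibroblast and mural genes it was 0.41. These summed to 381 to 588 CPM, against 880 to 919 in Cre mice 1 and 2 and 624 in Cre mouse 3. For 8 macrophage genes the median was 0.25 (973 to 1370 against 771 to 1580 CPM). Of 8 lymphocyte genes 7 were tested, with a median of -0.22. All 8 summed to 44.2 to 49.3 against 26.7 to 57.9 CPM. None of these 7 lists had a gene called by edgeR with all 5 mice. At an unadjusted p under 0.05, in the order given, 2, 4, 4, 1, 4, 0 and 0 passed, against 18.8% of all genes. DESeq2 called 1 collecting duct and 2 podocyte genes lower, and without Cre mouse 3 edgeR called 1 distal, 2 collecting duct and 1 podocyte gene lower and 2 fibroblast and mural genes higher. Of all genes, DESeq2 called 1.49% lower, and edgeR without Cre mouse 3 called 3.1% lower and 1.43% higher. None of the genes in these lists was at 0 in all libraries.

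Carriers that work beside the 10 were read from lists. Slc22a6 (OAT1) and Slc22a8 (OAT3) take organic anions from the blood at the basolateral side of the proximal tubule. Slc22a8 was at 344 and 471 CPM in control mice and at 73.8, 67.0 and 49.6 CPM in Cre mice. It fell by 2.68 ± 0.22 on the log2 scale (SE, adjusted p = 0.0242, edgeR's quasi-likelihood test) and was called. Slc22a6 was at 822 and 896 against 265, 411 and 334 CPM, with a log2 fold change of -1.35 ± 0.21 that just missed (adjusted p = 0.0505, edgeR's quasi-likelihood test). Both lay below both controls in every Cre mouse, as did all 4 listed Slc22 carriers and 21.3% of all genes tested. Of the 4 carriers, edgeR called 1 lower (0.628% of all genes). DESeq2 called 3 lower (1.49% of all genes), and so did edgeR without Cre mouse 3 (3.1%).

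Of 12 further Slco and Slc47 genes, 6 were tested and 0 called by edgeR or DESeq2, with a median log2 fold change of 0.35. At an unadjusted p under 0.05 in edgeR, 3 of the 6 passed, against 18.8% of all genes. Besides Slco1a6, the most abundant were Slco2b1, at 29.2 and 35.9 against 42.5, 38.6 and 53.9 CPM, and Slco4a1, at 25.3 and 29.3 against 39.2, 35.8 and 64.1 CPM. Their log2 fold changes were 0.47 ± 0.19 and 0.76 ± 0.28 (SE, adjusted p = 0.259 and 0.218, edgeR's quasi-likelihood test). Of 41 further ABC transporters, 30 were tested and 0 called by edgeR, with a median of -0.02. At an unadjusted p under 0.05 in edgeR, 5 of the 30 passed, against 18.8% of all genes. DESeq2 called 1 of these ABC transporters lower (1.49% of all genes) and 1 higher (0.472%). The most abundant, the peroxisomal fatty acyl carrier Abcd3, the surfactant lipid carrier Abca3 and the cyclic nucleotide exporter Abcc5, were at log2 fold changes of 0.02, 0.10 and 0.13.

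Of 13 regulators and scaffolds of these transporters, 0 were called by edgeR or DESeq2, and the median log2 fold change was -0.28. At an unadjusted p under 0.05 in edgeR, 4 of the 13 passed, against 18.8% of all genes. Hnf4a, a transcription factor of proximal tubule identity, was at 654 and 664 CPM in control mice and 401, 580 and 550 CPM in Cre mice. The brush border scaffolds Pdzk1 and Slc9a3r1 were at log2 fold changes of -0.81 ± 0.30 and -0.54 ± 0.16 (SE, adjusted p = 0.23 and 0.162, edgeR's quasi-likelihood test). Pdzk1 was at 434 and 399 against 267, 302 and 146 CPM. All 3 lay below both controls in every Cre mouse and none passed. Of the 13, 5 lay below both controls in every Cre mouse and 1 above, against 21.3% and 20.3% of all genes.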

How the data were processed

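RNA-seq libraries of kidneys from 5 mice were analysed, grouped by genotype as labelled. Raw counts of reads on each gene were deposited by the authors beside TPM and FPKM, that is, the count scaled by exon length and library total. The submitters' processing notes name CASAVA, featureCounts 2.0.1, DESeq2 1.16.1 and a human build (hg38), although the genes are mouse genes; the aligner and the strand setting are not given in the sources used here. The files list 35478 genes, and the broken lines of 5 were rejoined. Counts were filtered with filterByExpr (16394 genes kept), scaled by TMM and tested with edgeR 4.0.16's quasi-likelihood test without covariates (R 4.3.3), with Benjamini-Hochberg adjustment over all genes. Genes were called as stated in the results. CPM are TMM-scaled, and log2 CPM used a prior count of 2. The scripts were tested on simulated data. All 10 transporters were described, and from each other list of transporters and regulators the called genes (at most 8) and the 3 with the highest mean CPM. Of these, 1 is not reported here, and further genes were named after their values were seen. The members and all lists were chosen with earlier results of these data known. Mouse numbers are not stated to pair the mice, and the main test used no pairing. The deviations of same-numbered mice from their group means correlated at 0.00102 and -0.022. With 2 control mice their deviations mirror each other, so these values cannot decide whether the numbers pair mice. Alternatives were DESeq2 1.42.0, limma 3.58.1 on log2 FPKM with 1 or 0.1 added (genes reaching an FPKM of 1 in 2 libraries), other filters, scalings and call rules, a block, pooled copies and single mice left out. Tables used Python 3.11.15, pandas 2.3.3 and matplotlib 3.10.9.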

Additional observations from a re-analysis of the deposited data

How the results depend on the processing

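Over 16 alternatives, 147 of 159 values of the 10 transporters kept their sign and their side of the threshold. Slco1a1 was called under 9 alternatives and not under the other 7. The count of transporters called lower went from 1 to 0 under glmTreat, with the copies pooled and in the fit with the mouse number as a block (Slco1a1 adjusted p = 0.149, edgeR's quasi-likelihood test), and lay between 0 and 1 without single mice. That block paired mice by number, which is not stated to pair them. With fewer mice, or with a block, fewer degrees of freedom remain, and for the rest the cause was not tested. The count called higher was 0 throughout. Abcc2 turned to -0.05 without control mouse 3, to -0.22 without Cre mouse 3 and to -0.08 with the block, and without Cre mouse 3 Abcb1a turned to -0.05 and Abcg2 to -0.35. Over the fits without single mice, Abcc2 ranged from -0.22 to 0.26, Abcb1a from -0.05 to 0.58 and Abcg2 from -0.35 to 0.43. All genes called numbered 116, and 502 with DESeq2, 287 with no filter beyond 1 count, 46 with library size scaling, 55 and 43 with limma on log2(FPKM + 1) and log2(FPKM + 0.1), 0 with glmTreat or the block, and 0 to 733 without single mice. A lone control mouse was assumed to vary like the other group. Scaling by library size alone moved the median of all genes from 0.038 to 0.149 on the log2 scale and turned no transporter. The Abcb1b share differed by 2.47 to 10.3 percentage points without single mice, and Slco1a1 relative to the proximal markers by -1.81 to -1.04. Depth bears most on Slco4c1 and Abcb1a, which rested on 34 to 232 and 60 to 121 counts per library.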
